A study of Oryza sativa Japonica Group with 9 samples.

Results

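The genes described here are the rice metal transporters of the YSL, ZIP and IRT, NRAMP, HMA, MTP, COPT and VIT families, with YSL13 (LOC4336441) as the member whose transcript differed between the cell populations. A gene was a member if its symbol or a synonym, with the prefix Os ignored, was one of these family names, or FRDL, followed by a number. The reference tables held 55 such genes, of which 45 had a probe set on the array that was paired with them alone, among 17905 genes with such a probe set. They were 15 of 18 YSL genes, 10 of 12 ZIP and IRT genes, 6 of 6 NRAMP genes, 3 of 4 HMA genes, 5 of 6 MTP genes, 4 of 7 COPT genes and 2 of 2 VIT genes, and 0 genes carried an FRDL name. The members with no probe set of their own were YSL2, YSL3, YSL17, ZIP9, ZIP10, HMA9, MTP8, COPT4, COPT5.2 and COPT6. A member with several probe sets was represented by the one with the highest mean over the 9 arrays. This applied to YSL12, MTP4 and NRAMP4, and the other 42 members had 1 probe set each.

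The study measured transcripts on 9 single-colour arrays of cortical cells cut by laser from roots of the japonica rice cultivar Nipponbare, with 3 arrays per group. Arbusculated cells held an arbuscule, the branched structure through which an arbuscular mycorrhizal fungus feeds a root cell, and systemic cells were their fungus-free neighbours in the same kind of colonised root. Plants of these groups received 250 spores of Rhizophagus irregularis at planting, whereas mock cells came from roots given a mock inoculum. All 3 groups shared the harvest at 7 weeks, a feed that the labels give as adjusted to 25 mM KH2PO4, and a pool of about 2000 captured cells per array. In such pools, fewer cells of a type and less RNA per cell cannot be told apart. No label links a sample to a plant, so p-values measure the spread between these samples and would be too small if samples of a group shared plants.

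Plants move iron, zinc, manganese and copper with several families of membrane proteins. ZIP and IRT proteins and NRAMP proteins bring divalent metal ions into the cytoplasm and COPT proteins bring in copper, HMA pumps and MTP and VIT proteins move metals out of the cytoplasm or into the vacuole, and YSL proteins carry metals bound to nicotianamine or to phytosiderophores. Grasses such as rice release phytosiderophores, the mugineic acids, into the soil to dissolve iron(III), and rice also takes up iron(II) through IRT1. Mycorrhizal fungi are known to deliver zinc and copper to their hosts besides phosphate.

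Values are the log2 values per probe set that the authors deposited, and a difference of 1 on this scale is a 2-fold change. The level of 1 probe set cannot be set against that of another. The median of the mean values of all probe sets was 5.52, and 24 of the 45 members, YSL13 among them, lay below it. RNA quality, read as the 3' minus 5' difference of control transcripts, stood at 0.78 ± 0.45 (SD, n = 3) on the arbusculated arrays. It was 0.32 ± 0.11 on the mock arrays and 0.20 ± 0.32 on the systemic arrays. Arbusculated 1, 2 and 3 stood at 1.25, 0.73 and 0.36, and YSL13 and YSL12, but not YSL14, fell in this order on them. The part of RNA quality in the results was not tested. Across probe sets, which are not independent, mock 2 correlated on average at 0.878 with the arbusculated group and at 0.853 with the other mock arrays. As a check of the labels, a probe set of PT11, which takes up phosphate from the arbuscule, read 9.43, 8.91 and 8.30 on the arbusculated arrays against 3.55 to 4.37 on the other 6. It was picked with its values in view from 4 probe sets of PT11, and the representative one did not separate arbusculated from mock arrays. The remaining ones differed from mock by -0.81 with overlap and by 2.015 without overlap. Against systemic cells the representative differed by -0.51 and the remaining ones by -1.38 and 1.83, each without overlap. AMT3;1, the other marker of arbusculated cells that was measured, differed by 1.01 against mock without overlap and by 0.85 against systemic cells with overlap. A second probe set of AMT3;1 differed by -0.15 and 0.01. Levels of markers were summed unlogged and then put on the log2 scale, so brighter probe sets weigh more. For the 3 cellulose synthases of xylem and sclerenchyma, CESA4, CESA7 and CESA9, this sum was 8.05 to 8.38 on the arbusculated arrays. It was 8.87 to 9.95 on the mock and 7.82 to 8.61 on the systemic arrays. That of the 2 phloem markers, SUT1 and FTIP1, was 6.55 to 7.36, 6.91 to 6.95 and 6.29 to 6.94. FTIP1 alone differed from mock by -0.59 in arbusculated and -0.90 in systemic cells, without overlap. SUT1 differed by 0.08 and -0.12 with overlap. CSLD1, the 1 marker of root hair and epidermis measured, read 8.03 on mock 1 and 3.36 to 6.69 on the other arrays. The part of these cell types in the results was not tested.

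YSL13 rose in arbusculated cells against each of the other populations. In rice it has been described as a transporter that takes part in distributing iron among leaves. Its values were 6.38, 6.10 and 5.41 on the arbusculated arrays, 4.22, 3.57 and 3.74 on the mock arrays and 3.73, 3.62 and 3.55 on the systemic arrays. Every arbusculated array lay above all 6 others, and the mock and systemic arrays overlapped. Against mock the rise was 2.12 ± 0.29 (log2, SE; n = 3 per group), or 4.34-fold, with a 95% interval of 1.45 to 2.78 and an adjusted p of 0.0387 by limma. Against systemic cells it was 2.33 ± 0.29, or 5.02-fold, with an interval of 1.66 to 2.99 and an adjusted p of 0.0274 by limma. Systemic and mock cells differed by -0.21 ± 0.29, with an interval from -0.88 to 0.46 (adjusted p = 0.969 by limma). The comparisons against mock and against systemic cells share the arbusculated arrays and are not independent.

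The YSL13 difference kept its direction in all alternatives that could be run for it, which leaves out the filter on dim probe sets, since that removes YSL13. Its call was often lost. Counting the main fit, YSL13 passed in 10 of 20 settings against mock and in 12 of 20 against systemic cells. The difference stayed between 1.91 and 2.40 against mock, with an adjusted p of 0.022 to 0.148 by limma. Against systemic cells it stayed between 2.12 and 2.61, with an adjusted p of 0.0141 to 0.0907. With 1 array left out, the call against mock was kept without arbusculated 3 and lost without any other array. The difference without mock 2, the array that correlated best with the arbusculated ones, was 1.98 (adjusted p = 0.0712 by limma). The call against systemic cells was kept without arbusculated 3, mock 1 or mock 2 and lost without any other array.

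**Figure D1:**
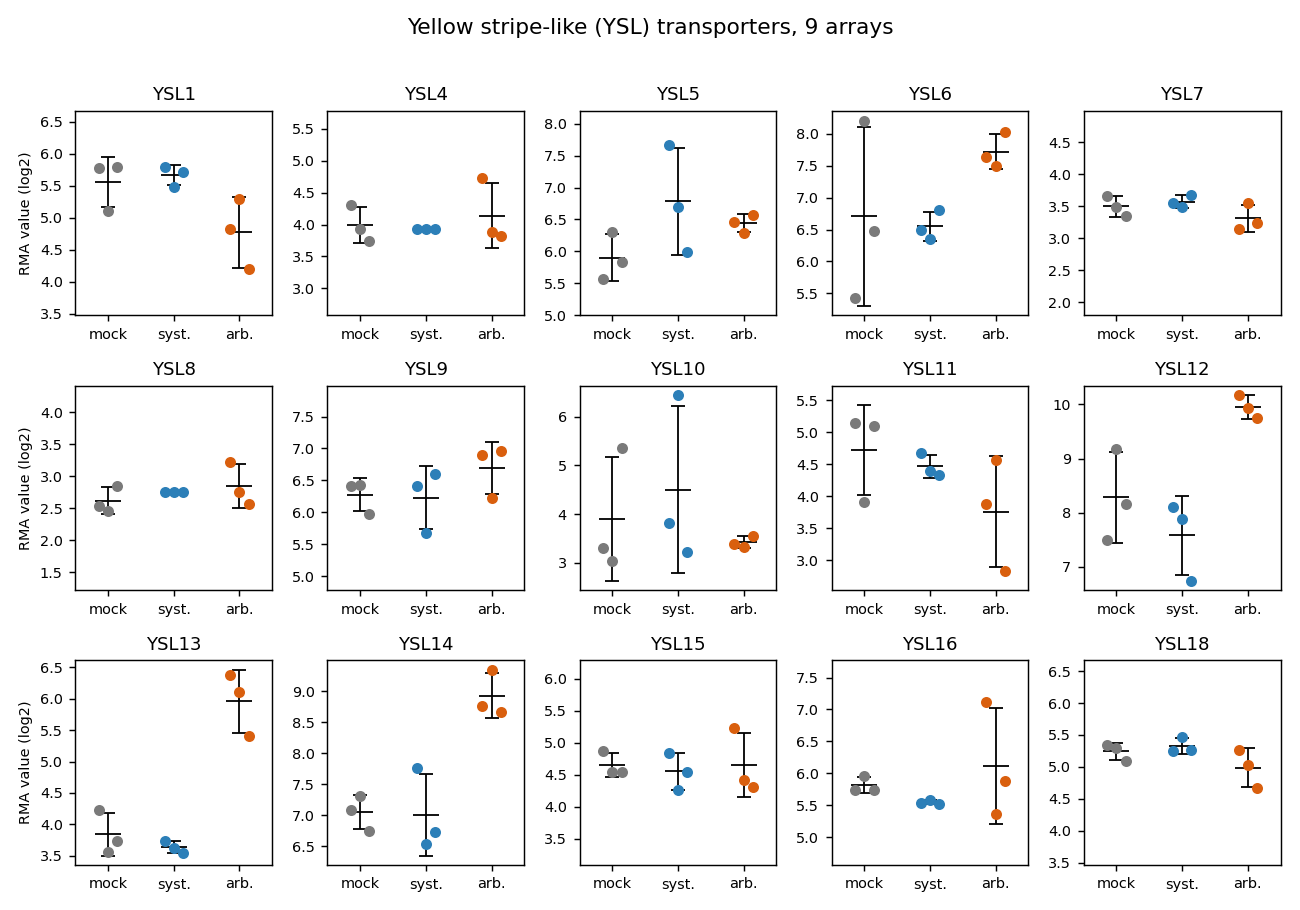
Log2 values of the 15 measured YSL genes on the mock, systemic (syst.) and arbusculated (arb.) arrays. Points are single arrays, and the bars give the mean and SD of 3. In YSL13 the arbusculated arrays lie between 5.41 and 6.38 and the other 6 between 3.55 and 4.22. YSL12 and YSL14 also show 3 arbusculated arrays above all others.

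YSL12 (LOC4336442) and YSL14 (LOC9267947) had differences of a similar size to YSL13 and did not pass the test. YSL12 read 10.18, 9.94 and 9.75 on the arbusculated arrays, 7.50, 9.18 and 8.17 on the mock arrays and 8.11, 7.89 and 6.74 on the systemic arrays. All 3 arbusculated arrays were above the other 6, with mock 2 the nearest. The difference was 1.67 ± 0.48 against mock (adjusted p = 0.279 by limma) and 2.38 ± 0.48 against systemic cells (adjusted p = 0.0967 by limma). A second probe set of YSL12 differed by -0.13 and -0.36 in the same comparisons, so the probe sets of this gene disagree. Averaging both probe sets gave 0.77 and 1.01.

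YSL14 read 8.76, 9.35 and 8.67 on the arbusculated arrays, 7.09, 7.31 and 6.75 on the mock arrays and 7.76, 6.53 and 6.73 on the systemic arrays. Here too the arbusculated arrays stood above all others without overlap. The difference was 1.88 ± 0.36 against mock, with a 95% interval of 1.06 to 2.69 (adjusted p = 0.121 by limma). Against systemic cells it was 1.92 ± 0.36, with an interval of 1.11 to 2.73 (adjusted p = 0.0873 by limma). The adjusted p of YSL14 stayed above the threshold of 0.05 in every alternative, with 0.0659 the lowest.

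YSL13, YSL12 and YSL11 lie beside each other on chromosome 4 in the annotation of assembly ASM3414082v1, with no annotated gene between YSL13 and YSL12 or between YSL12 and YSL11. YSL11 (LOC4336445) did not share the direction of its neighbours. It read 3.87, 4.57 and 2.84 on the arbusculated arrays, 5.15, 3.91 and 5.10 on the mock arrays and 4.67, 4.40 and 4.32 on the systemic arrays, and the groups overlapped. Its difference was -0.96 ± 0.48 against mock and -0.70 ± 0.48 against systemic cells (adjusted p = 0.382 and 0.373 by limma), and -0.50 and -0.24 without arbusculated 3. Other measured members that adjoin each other are YSL5 and YSL6, YSL7 and YSL8, and COPT1 and COPT3.

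YSL15 (LOC9268232), which takes up iron(III) bound to deoxymugineic acid at the root surface, read 5.23, 4.42 and 4.30 on the arbusculated arrays, 4.87, 4.55 and 4.55 on the mock arrays and 4.84, 4.26 and 4.55 on the systemic arrays. The 3 groups overlapped, and arbusculated and mock means were 4.65 and 4.66. The 95% interval of that difference ran from -0.67 to 0.66, and its sign turned when arrays were centred on their medians. YSL18, which carries iron bound to deoxymugineic acid inside the plant, differed by -0.26 ± 0.21 against mock and -0.34 ± 0.21 against systemic cells.

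YSL6 (LOC4335676), known for protecting rice from excess manganese, read 7.64, 7.49 and 8.03 on the arbusculated arrays and 6.49, 6.36 and 6.81 on the systemic arrays. These groups did not overlap, and the difference was 1.17 ± 0.60 (adjusted p = 0.256 by limma). The mock arrays spread over 5.43, 8.21 and 6.48, with mock 2 above every arbusculated array, and the difference from mock was 1.01 ± 0.60. Without mock 2 it was 1.76, and without mock 1 it was 0.38. YSL1 was lower on the arbusculated arrays, at 4.82, 5.30 and 4.19, than on the systemic arrays, at 5.80, 5.49 and 5.72. The YSL1 groups did not overlap, the difference being -0.90 ± 0.32 (adjusted p = 0.162 by limma), and against mock it was -0.79 ± 0.32 with overlap, or -0.50 without arbusculated 3.

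YSL10 stood out by single arrays rather than by group. It read 6.44 on systemic 2 and 5.36 on mock 3, and between 3.04 and 3.81 on the other 7 arrays. Its difference of -1.07 between arbusculated and systemic cells was -0.10 without systemic 2. The difference of -0.48 against mock became 0.25 without mock 3. YSL5 was 0.88 ± 0.40 higher in systemic than in mock cells, with overlapping groups (adjusted p = 0.969 by limma), and 0.44 higher without systemic 1. YSL16, a carrier of copper bound to nicotianamine, had lower values on the systemic arrays, at 5.53 to 5.59, than on the mock arrays, at 5.74 to 5.96, without overlap, and its difference was -0.26 ± 0.40.

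The remaining YSL genes differed by less than 0.5 in every comparison. Against mock the differences of YSL4, YSL7, YSL8 and YSL9 in arbusculated cells were 0.15, -0.19, 0.23 and 0.42. YSL9, known for iron supply to the developing seed, differed by 0.47 ± 0.32 against systemic cells, and by 0.19 without systemic 2. YSL4 at 3.93 and YSL8 at 2.75 had the same value on all 3 systemic arrays. Such exact repeats on 2 or more arrays occurred in 16 of the 45 members (35.6%) and in 36.2% of all probe sets.

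Of the ZIP and IRT genes, 0 of 10 passed the test in limma in any comparison. Over all probe sets 0.187% passed between arbusculated and mock, 0.246% between arbusculated and systemic and 0% between systemic and mock cells, so a count of 0 is near the background. The ZIP and IRT genes whose arbusculated arrays separated from another group were lower in arbusculated cells, 3 of 10 in each comparison. Of all probe sets, 14% were lower and 6.64% higher without overlap against mock, and 22.7% and 9.39% against systemic cells. Of gene representatives the shares were 5.68% and 10.9% against mock, and 7.94% and 17.4% against systemic cells. The genes concerned, IRT2, ZIP8, ZIP4 and ZIP3, all had means below the median of 5.52. IRT2 (LOC4333667), an importer of iron(II), read 4.40, 4.38 and 4.14 on the arbusculated arrays, 5.30, 4.90 and 5.12 on the mock arrays and 5.03, 5.26 and 4.89 on the systemic arrays. Every arbusculated array lay below all 6 others. The difference was -0.80 ± 0.20 against mock and -0.75 ± 0.20 against systemic cells (adjusted p = 0.238 and 0.127 by limma). ZIP8 (LOC4342782), a zinc transporter that the tables also name ZIP1, was described after its values were seen. It read 4.24, 4.49 and 4.21 on the arbusculated arrays, 5.28, 4.84 and 4.90 on the mock arrays and 5.08, 5.26 and 5.17 on the systemic arrays. ZIP8 thus had its 3 lowest values on the arbusculated arrays, with a difference of -0.70 ± 0.20 against mock and -0.86 ± 0.20 against systemic cells (adjusted p = 0.279 and 0.113 by limma).

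ZIP4 (LOC4344937), which distributes zinc within the plant and responds to zinc deficiency, did not pass the test either. It read 3.68, 3.68 and 4.05 on the arbusculated arrays, 5.57, 4.02 and 6.52 on the mock arrays and 4.53, 4.61 and 5.40 on the systemic arrays. The arbusculated arrays lay below all systemic arrays, and mock 2 fell among them. The difference was -1.57 ± 0.57 against mock, with a 95% interval of -2.86 to -0.28 (adjusted p = 0.327 by limma), and -1.05 ± 0.57 against systemic cells (adjusted p = 0.278 by limma). Without mock 2 the difference from mock was -2.24 (adjusted p = 0.0764 by limma), and without mock 3 it was -0.99. ZIP3, a zinc transporter of the node in rice, also named after its values were seen, differed by -0.42 ± 0.27 against mock, without overlap.

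ZIP5 (LOC4339082), a zinc importer of the root, read 7.41, 4.93 and 7.71 on the arbusculated arrays, 7.64, 5.64 and 5.34 on the mock arrays and 4.91, 5.64 and 3.56 on the systemic arrays. Arbusculated 1 and 3 and mock 1 were high and the other 6 arrays low, so the groups overlapped. The difference between arbusculated and systemic cells was 1.98 ± 0.90, with an interval from -0.08 to 4.04 (adjusted p = 0.22 by limma). IRT1, the main importer of iron(II) in rice roots, was 0.48 ± 0.45 above mock and 0.66 ± 0.45 above systemic cells with overlapping groups. Without arbusculated 3 these differences were 0.15 and 0.32.

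**Figure D2:**
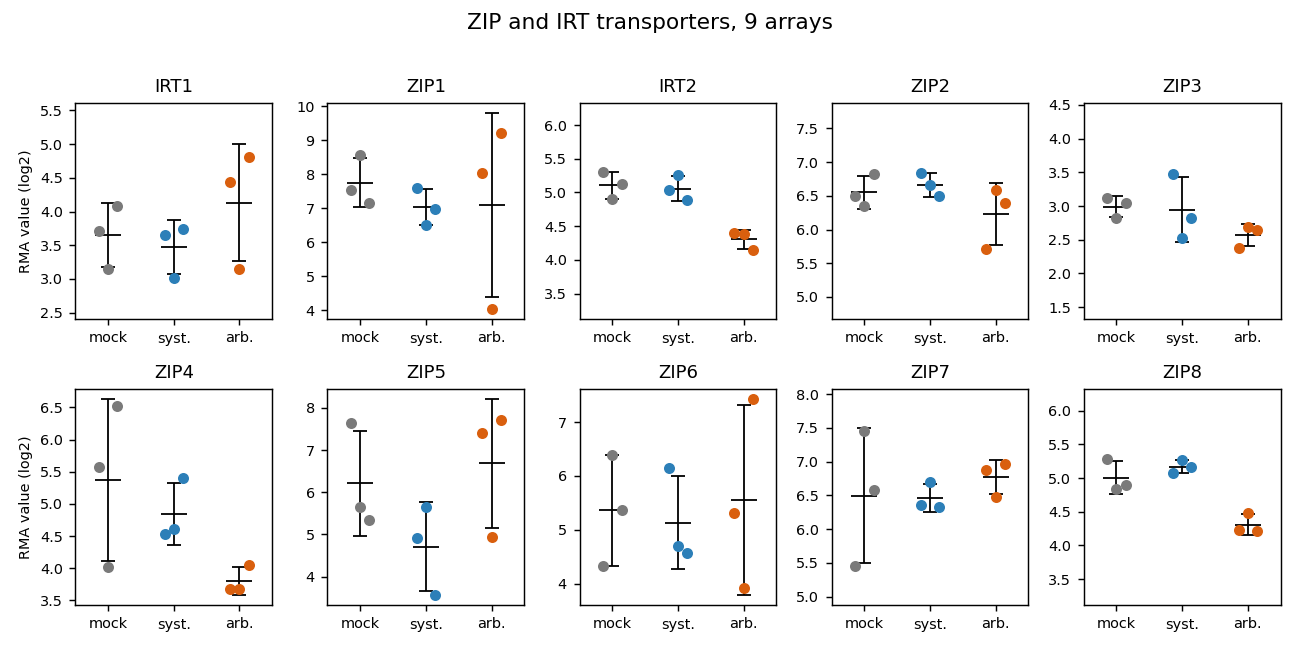
Log2 values of the 10 measured ZIP and IRT genes on the mock, systemic (syst.) and arbusculated (arb.) arrays. Points are single arrays, and the bars give the mean and SD of 3. IRT2 and ZIP8 have all arbusculated arrays below the other 6, while ZIP1 spreads from 4.04 to 9.21 within the arbusculated group.

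Of the NRAMP genes, 0 of 6 passed the test in limma in any comparison, also near the background of 0.187%, 0.246% and 0% of all probe sets. NRAMP5 (LOC4342859), the main root importer of manganese, described after its values were seen, read 8.88, 7.92 and 8.70 on the arbusculated arrays and 7.09, 7.19 and 8.23 on the systemic arrays. The groups overlapped through arbusculated 2 and systemic 3, and the difference was 1.00 ± 0.40 (adjusted p = 0.188 by limma). NRAMP2 had its lowest values on mock 1 and mock 2, at 3.40 and 4.60, against 5.15 to 5.82 on the arbusculated and systemic arrays. Mock 3, at 5.24, lay inside the systemic range. The NRAMP2 difference between systemic and mock cells was 1.00 ± 0.44, and 0.49 without mock 1. NRAMP3, which distributes manganese at the nodes of the shoot, differed by -0.92 ± 0.73 between systemic and mock cells with overlapping groups, and by -0.13 without systemic 2, which read 5.46. NRAMP1, which transports iron and cadmium, was higher in systemic cells, at 5.52 to 5.85, than in mock cells, at 4.78 to 5.51, without overlap, by 0.46 ± 0.28, and by 0.26 without mock 2.

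NRAMP6 rested on 1 array. It read 6.95 on arbusculated 3 and between 2.88 and 4.44 on the other 8 arrays. The difference against mock was 1.17 ± 0.84, and without arbusculated 3 it was 0.11. The 5 probe sets of NRAMP4 differed against mock by 0.04 to 0.75, with 0 past the test, and the one at 0.75 had no overlap. Against systemic cells the representative differed by -0.41 with overlap, and others by 0.83 and 0.91 without overlap. The rest differed by 0.64 and -0.07 with overlap, so the probe sets of NRAMP4 disagree.

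The HMA, MTP, COPT and VIT families held 0 members past the test in limma, against the same 0.187%, 0.246% and 0% of all probe sets. HMA5, which loads copper into the xylem, was 0.75 ± 0.62 higher in arbusculated than in mock cells, and without arbusculated 3 the difference was 0.07. HMA4, which stores copper in root vacuoles, was 0.45 ± 0.31 higher, and 0.29 higher without arbusculated 1. HMA2, which loads zinc and cadmium for transport to the shoot, differed by 0.24 ± 0.49. MTP1 (LOC4337694), a vacuolar zinc transporter, read 8.33, 7.69 and 8.45 on the arbusculated arrays and 6.63, 7.78 and 7.31 on the mock arrays. Only mock 2 and arbusculated 2 overlapped, and the difference was 0.91 ± 0.36 (adjusted p = 0.339 by limma). MTP3 was 1.36 ± 0.84 higher in arbusculated than in systemic cells, and its arbusculated values spread over 7.58, 5.66 and 8.40. Without arbusculated 3 the MTP3 difference was 0.77.

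COPT5.1 (LOC4347173), a member of the copper importer family, read 8.97, 8.72 and 7.27 on the arbusculated arrays, 8.15, 7.09 and 7.38 on the mock arrays and 6.38, 6.17 and 7.48 on the systemic arrays. Arbusculated 3 and systemic 3 overlapped, and the difference between those groups was 1.64 ± 0.53 (adjusted p = 0.148 by limma). COPT1, a copper importer of the root, differed by 0.32 ± 0.84 against mock, and by -0.32 without arbusculated 3. VIT1, a vacuolar iron and zinc transporter, differed by -0.39 ± 0.29 against mock, with overlapping groups.

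**Figure D3:**
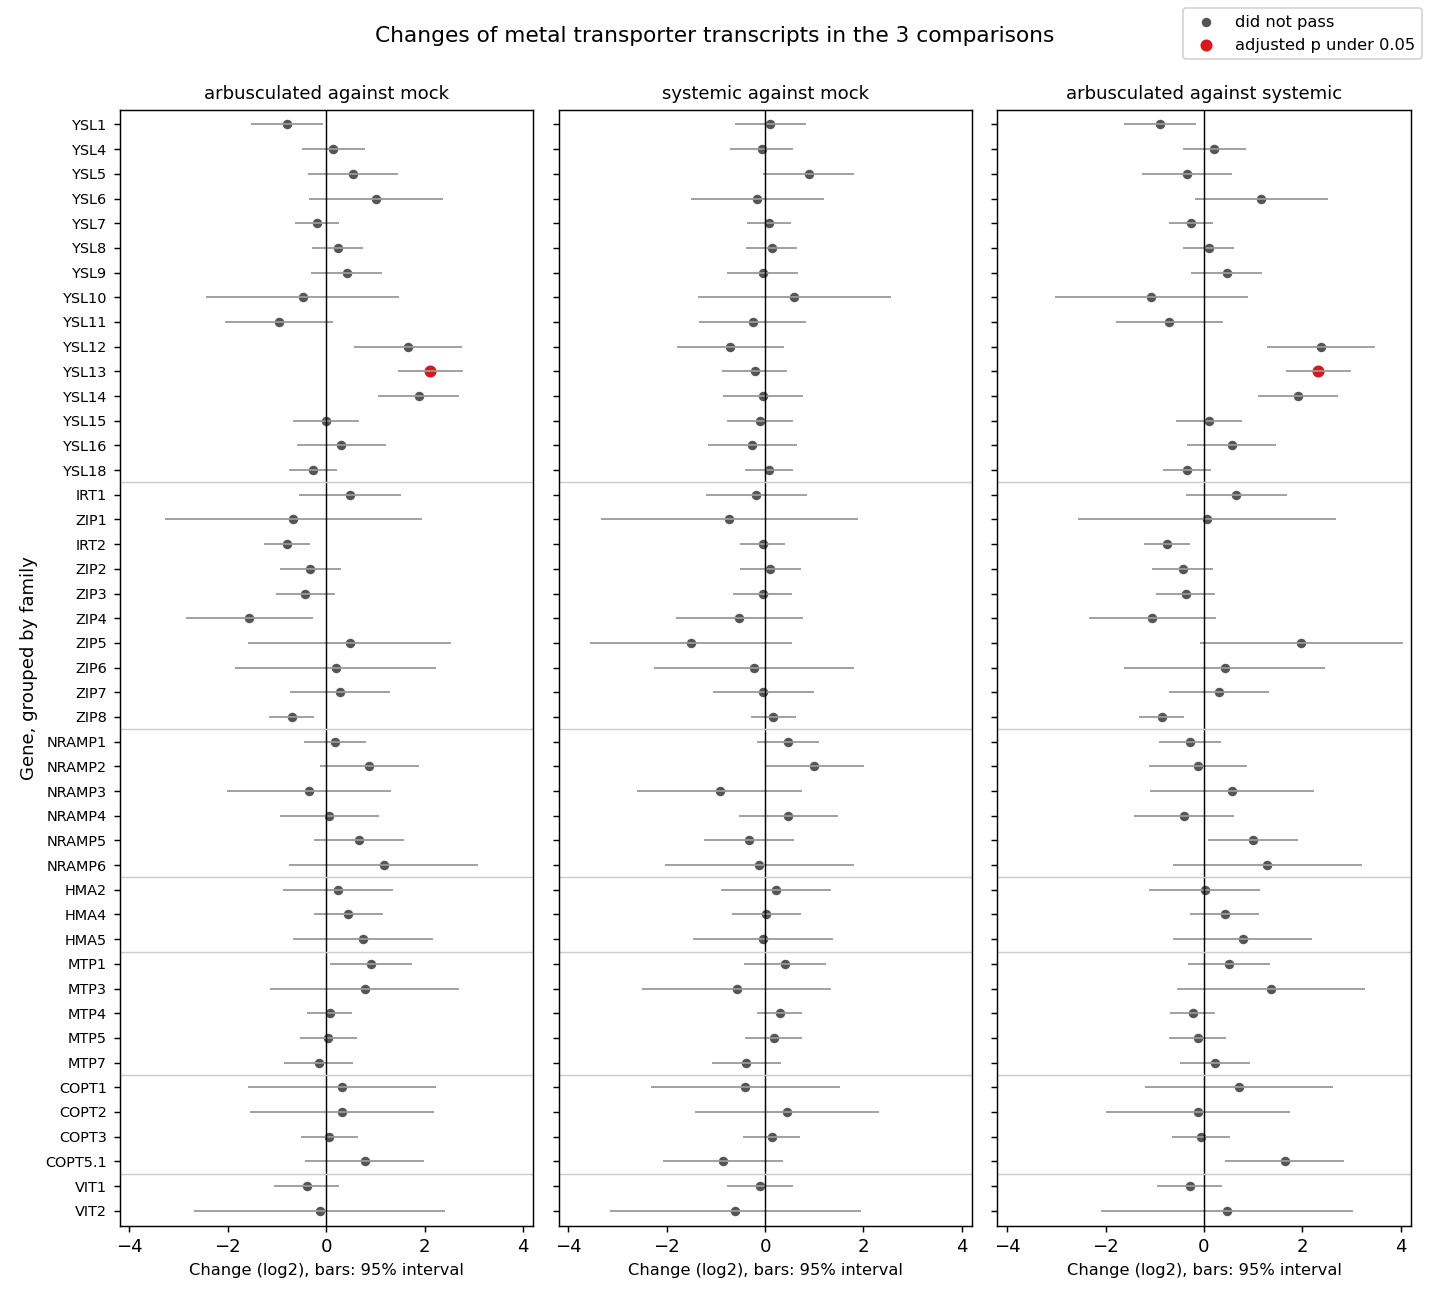
Differences of the 45 measured members in each of the 3 comparisons on the log2 scale, with 95% intervals from limma, grouped by family. YSL13, in red, is the only member with an adjusted p under 0.05, at 2.12 against mock and 2.33 against systemic cells.

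Over the whole set, 1 of 45 members rose and 0 fell between arbusculated and mock cells in limma, against 0.178% of all probe sets that rose and 0.00873% that fell (0.187% together). Of all gene representatives, 0.307% passed in either direction. The unadjusted p was under 0.05 for 4 members that were higher and 4 that were lower, together 17.8% of the members and 14.2% of all probe sets. The groups did not overlap in 6 of 45 members, 13.3% against 20.7% of all probe sets and 16.6% of all gene representatives. The median difference of the members was 0.20, against -0.12 over all probe sets and 0.21 over all gene representatives. A difference above 0 was found in 29 of 45 members, 64.4% against 41.2% of all probe sets and 62.4% of gene representatives. Against gene representatives, chosen the same way, neither their direction nor their median set the members apart. By family, the median was 0.23 in YSL, -0.37 in ZIP and IRT, 0.42 in NRAMP, 0.45 in HMA, 0.07 in MTP, 0.32 in COPT and -0.26 in VIT.

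Between arbusculated and systemic cells, 1 of 45 members rose and 0 fell in limma, against 0.232% and 0.014% of all probe sets (0.246% together). Of all gene representatives, 0.424% passed in either direction. The unadjusted p was under 0.05 for 5 members that were higher and 3 that were lower, together 17.8%, against 23.9% of all probe sets. The groups did not overlap in 8 of 45 members, 17.8% against 32.1% of all probe sets and 25.4% of gene representatives. The members without overlap were YSL6, YSL12, YSL13 and YSL14, which were higher in arbusculated cells, and YSL1, IRT2, ZIP4 and ZIP8, which were lower. The median of the members was 0.10, against -0.17 over all probe sets and 0.30 over gene representatives.

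Systemic and mock cells differed in 0 of 45 members by limma, and 0% of all probe sets passed the test. At an unadjusted p under 0.05 it was 0 of 45 members, against 4.34% of all probe sets. NRAMP1 and YSL16 were the 2 members without overlap, 4.44% against 10.2% of all probe sets and 9.31% of gene representatives. The median difference was -0.05 over the members, 0.07 over all probe sets and -0.04 over gene representatives. With all arrays, the largest differences were -1.51 ± 0.90 in ZIP5 and 1.00 ± 0.44 in NRAMP2, with wide intervals of -3.57 to 0.55 and -0.0019 to 2.00. Without mock 1 they were -0.79 and 0.49.

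Several members varied more within the arbusculated group than between groups. ZIP1 read 8.05, 4.04 and 9.21 on the arbusculated arrays (SD 2.71), 7.53, 8.58 and 7.17 on the mock arrays and 7.60, 6.52 and 6.99 on the systemic arrays. Arbusculated 2 was the lowest and arbusculated 3 the highest of the 9. The ZIP1 difference against mock was -0.66 ± 1.15, and without arbusculated 2 it was 0.87. VIT2, a vacuolar iron and zinc transporter, read 10.27, 8.33 and 12.80 on the arbusculated arrays (SD 2.25) and 9.05, 11.73 and 11.02 on the mock arrays. The VIT2 difference against mock was -0.13 ± 1.12, and without arbusculated 2 it was 0.94.

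In 13 of 45 members arbusculated 2 was the lowest and arbusculated 3 the highest of their group while mock 2 was the highest mock array. This order, described after it was seen in ZIP1 and VIT2, occurred in 28.9% of the members and 16.7% of all gene representatives. ZIP1 and VIT2 are counted among the 13, which raises the share of the members. The other 11 members were COPT1, COPT2, HMA5, MTP1, MTP3, NRAMP6, YSL5, YSL6, YSL9, ZIP6 and ZIP7. The silicon transporter LSI1, a marker of the endodermis and exodermis, had it too, at 11.39, 9.34 and 12.55 on the arbusculated arrays and 9.40, 11.59 and 10.11 on the mock arrays. It was the 1 of 5 endodermis markers in this order (20%), and CASP1, LSI2, SHR1 and SCR1 did not follow it. The sum of the 5 endodermis markers, in which the bright LSI1 and LSI2 weigh most, was 12.62, 10.38 and 13.14 on the arbusculated arrays. It was 10.65, 12.62 and 11.91 on the mock arrays and 11.11, 10.90 and 11.62 on the systemic arrays. By marker, arbusculated cells differed from mock by -0.06 in LSI2 to 0.77 in SHR1, and only SCR1, at 0.66, had no overlap. Against systemic cells all 5 markers were higher, by 0.43 in SCR1 to 1.17 in LSI1, each with overlap. The part of endodermal cells in these values was not tested. YSL13 did not follow that order, since arbusculated 3 was its lowest arbusculated array.

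**Figure D4:**
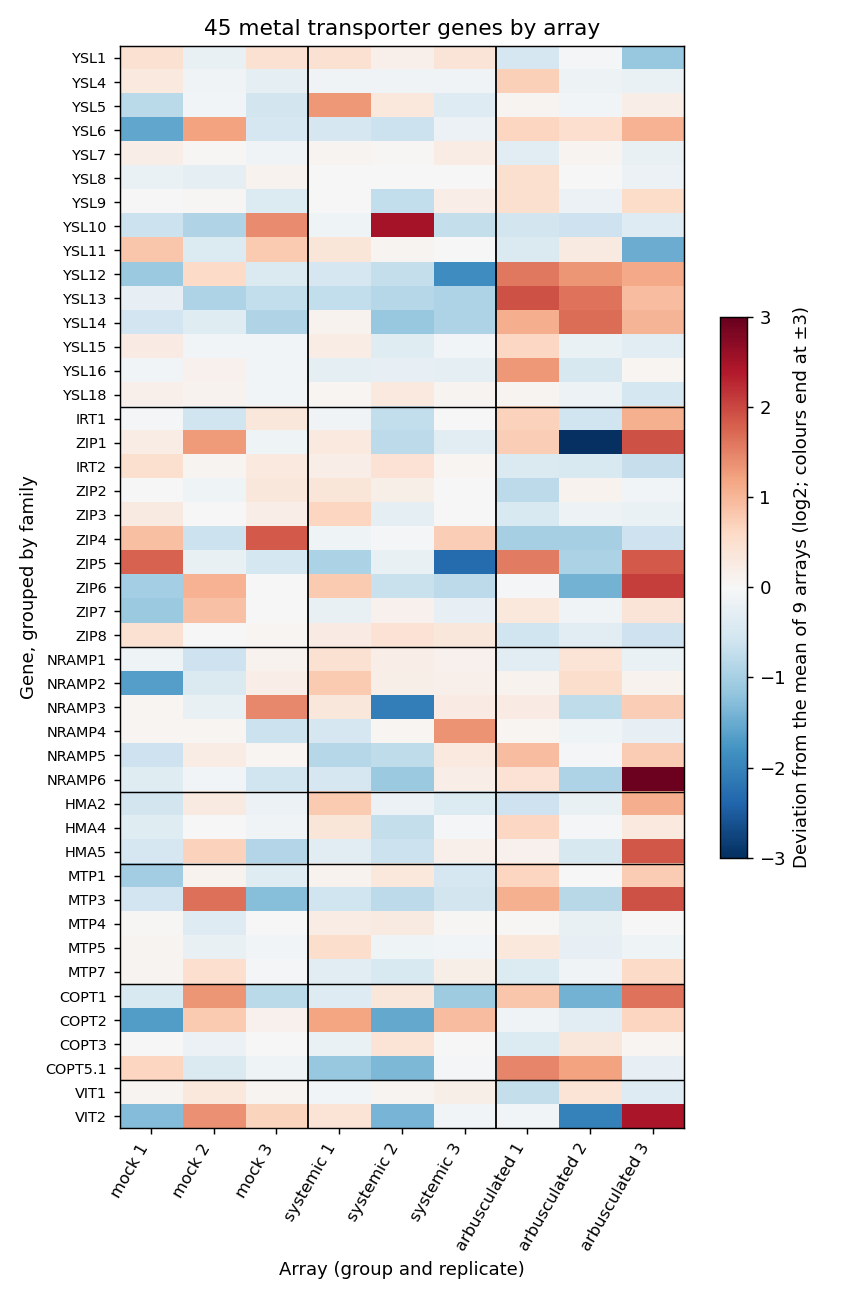
Deviation of each of the 45 measured members from its own mean over the 9 arrays on the log2 scale, with rows grouped by family and colours limited at 3 above or below. Arbusculated 2 and 3 differ in sign in ZIP1, VIT2, ZIP6 and MTP3, while YSL12, YSL13 and YSL14 are above their means on all arbusculated arrays.

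Genes that work with these transporters in iron nutrition were measured for 8 of 36 names on the list, and 0 of 8 passed the test in limma in any comparison. At an unadjusted p under 0.05 the counts were 0 against mock and 2 against systemic cells for arbusculated cells, and 2 between systemic and mock cells. Over all probe sets the shares past the test were 0.187%, 0.246% and 0% in these comparisons, and those at the unadjusted limit 14.2%, 23.9% and 4.34%. TOM1 (LOC4330406), which exports mugineic acids into the soil, read 9.26, 8.49 and 8.99 on the arbusculated arrays, 8.20, 8.95 and 8.36 on the mock arrays and 7.06, 7.37 and 7.57 on the systemic arrays. The systemic arrays were the lowest 3 of the 9. The difference was 1.58 ± 0.29 between arbusculated and systemic cells (adjusted p = 0.0861 by limma) and -1.17 ± 0.29 between systemic and mock cells (adjusted p = 0.969 by limma).

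IRO3, a regulator of the response to iron deficiency, had the same order, with differences of 0.77 ± 0.26 and -0.67 ± 0.26 and no overlap in either comparison. NAS1, NAS2 and NAS3 make nicotianamine, the ligand YSL proteins carry. NAS1 and NAS2 differed by 0.03 and 0.02 between arbusculated and mock cells, while NAS3 differed by -1.07 ± 0.49 (adjusted p = 0.363 by limma), and by -0.54 without mock 3. The NAS3 groups only just failed to overlap, with arbusculated 3 at 6.665 and mock 2 at 6.668. NAAT1, an aminotransferase of mugineic acid synthesis, was 0.49 ± 0.49 above mock, with arbusculated 1 at 5.79 and the other arbusculated arrays at 4.01 and 4.02, and differed by -0.10 without arbusculated 1. TOM2, also an exporter of mugineic acids, and IDEF1, a regulator of the iron response, differed by -0.05 and 0.39 against mock. Against systemic cells TOM2 differed by -0.26 ± 0.19 without overlap, in the opposite direction to TOM1.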

How the data were processed

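Per the submitters' processing notes the authors used RMA, a method that corrects background, normalises quantiles and summarises probes. Neither its version nor its software is given in the sources used here. The resulting log2 values were used as deposited for 57258 rice probe sets, after 123 array controls were left out. The platform table paired 22436 probe sets with 1 gene, 95 with several and 34727 with none, and symbols were updated through RefSeq gene tables. Where genes shared a name, the name not used by another gene was preferred. All 9 arrays, grouped by the labels, entered 1 limma model (limma 3.58.1, R 4.3.3, moderated variances, two-sided, Benjamini-Hochberg over all probe sets, threshold 0.05). The model was also run on simulated data with planted differences larger than those of YSL13. That run does not show how the model does at the differences reported here. The number of arrays, 3 per group, limits the precision, and a permutation of 3 against 3 cannot give a p below 0.1.

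The members and lists were chosen with earlier results of these data known. Genes were named by rule: every YSL member, every member past the threshold, the 10 members with the largest difference in each comparison, the 2 with the largest in each other family, and of the partner list the 3 with the largest in each comparison. Members outside it (ZIP8, ZIP3, IRT1, NRAMP1, NRAMP4, NRAMP5, HMA2 and, as names in lists, COPT2, COPT3, ZIP6 and ZIP7) and the partners NAS1, NAS2, TOM2 and IDEF1 were chosen after their values were seen. Deviations from the group means of arrays with the same replicate number correlated at -0.285 to 0.0388, none above 0.1, so the numbers were not used as pairs. The alternatives, 20 per comparison, were other variance moderation, filters, scalings, weights, a replicate block, averaged probe sets, a minimum of 2-fold, and the removal of each array in turn, which was extended to the partner genes after seeing the data.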

Additional observations from a re-analysis of the deposited data

How the results depend on the processing

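The count of members past the test, 1 against mock and 1 against systemic cells (YSL13 in each), became 0 in both comparisons when dim probe sets were left out, which removes YSL13 and leaves 21 members, when only the 6 arrays of the comparison were fitted, and with the replicate block. Leaving out 1 array gave 0 to 1 in both comparisons. The count between systemic and mock cells was 0 in every alternative. YSL13 kept its direction in all alternatives that could be run for it. Its adjusted p by limma with the replicate block was 0.0896 against mock and 0.0729 against systemic cells, and with the 6 arrays alone 0.148 and 0.07. The replicate numbers are not known to mark shared plants. Over all probe sets, the number past the test moved from 107 to between 20 and 169 against mock, from 141 to between 11 and 211 against systemic cells, and from 0 to at most 3 between systemic and mock cells. Cyclic loess normalisation moved the median difference of all probe sets between arbusculated and systemic cells from -0.17 to -0.04. Of 90 single differences followed through the alternatives, 32 turned sign in at least 1 of them without passing the test, and 27 of these were under 0.5 in size. Matching genes by symbol alone left 0 members, since all matched through a synonym, so that alternative gave no values. Why results moved was not tested where the alternative's own construction does not show it.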
